A study of Mus musculus with 4 samples.

Results

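Cells with RNA of the mitotic machinery were examined in cultures of C3H 10T1/2, a mouse mesenchymal progenitor cell line that can turn into muscle or fat cells. They were chosen on measured counts: barcodes with at least 5000 UMIs (unique molecular identifiers, each a captured RNA molecule), at least 1500 genes and at most 20% mitochondrial UMIs were kept, and a kept cell entered the mitotic group when the 7 mitosis genes Cdk1, Ccnb2, Cdc20, Cenpf, Ube2c, Birc5 and Tpx2 together gave at least 8 UMIs. This rule found 2186 mitotic cells among 22049 kept cells. Kept cells with at most 1 such UMI (18267 cells, called low cells here) served for comparison within each library, and the 1596 cells in between were set aside.

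The study made 4 single-cell libraries on a 10X Genomics platform, 1 for each combination of a histone H3 transgene and a treatment, and no condition had a replicate. All cells carried a puromycin-selected lentiviral vector in which the EF1 promoter drives human histone H3.1 cDNA with HA and FLAG tags at its C-terminal end, either unaltered (H3WT) or with arginine 26 replaced by cysteine (H3R26C), and the cells' own H3 genes were kept in every group. The study's methods describe no cloning step after selection. One library of each genotype came from cells given 5-azacytidine (5-Aza), an inhibitor of DNA methylation that sets off differentiation of this line, and then kept in culture, and the other from cells given the vehicle DMSO, whose time in culture is not given in the sources used here. Since a condition is 1 library, the condition, the culture and the library cannot be told apart. No test between conditions was run, and all intervals are 95% intervals that cover counting error only. In what follows, 4 values in a row stand for H3WT DMSO, H3WT 5-Aza, H3R26C DMSO and H3R26C 5-Aza, in that order.

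In mitosis a cell divides its copied chromosomes between 2 daughter cells. Entry is driven by the kinase Cdk1 with cyclins A and B, chromosomes are compacted by condensins, kinetochores attach them to the spindle, and the anaphase-promoting complex (APC/C) then tags cyclins and securin for destruction so that the sister chromatids part. The RNAs of this machinery build up through G2 and are lost after division, so they mark G2 and mitosis together, and RNA counts do not separate these stages. Cells that leave the cycle to form muscle or fat cells normally switch these genes off.

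Kept cells numbered 3710, 5993, 4727 and 7619, and mitotic cells 172, 397, 423 and 1194. Mitotic cells held 6182045, 7831435, 11710301 and 24782273 UMIs in all, so that levels in the H3WT DMSO library rest on the fewest molecules. The median mitotic cell held 34540, 19522, 27873 and 20600 UMIs against 21980, 12770, 16111 and 12140 in low cells. It was therefore the deeper cell in every library, and at an equal depth of 5000 UMIs it showed slightly more genes than a low cell (medians of 2242, 2247, 2231 and 2182 against 2120, 2166, 2165 and 2144 genes). Cells above 2 times the median UMIs of their library made up 24.4, 13.6, 25.5 and 22.5% of the mitotic cells and 0.653, 1.49, 0.417 and 1.70% of the low cells. No doublets (droplets with more than 1 cell) were removed, their part in the mitotic group was not tested, and some results are also given without these large cells. Between 54 and 228 barcodes were shared by each pair of libraries, and 3, 11, 24 and 30 of the mitotic cells carried a barcode that also occurred in another library.

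Most kept cells were low cells, and the number of mitosis UMIs in the mitotic cells ranged widely above the threshold, with medians of 49, 41, 42 and 39. Of the mitotic cells, 59.9, 51.1, 53.2 and 49.1% held 40 or more such UMIs. At the threshold, 7, 15, 7 and 57 cells had 7 UMIs and 4, 15, 8 and 41 cells had 8. Cells with 4 to 7 UMIs numbered 44, 68, 62 and 308, and those with 8 to 15, a wider range, 27, 67, 68 and 237. The counts thus show no gap at the threshold. The chromosome-untangling enzyme Top2a, which the rule did not use, stood at 53.8, 78.7, 47.7 and 124 CPM (counts per 1000000 UMIs, with the UMIs of all cells of a class summed) in cells with 5 to 7 mitosis UMIs and at 77.9, 326, 220.0 and 167 CPM in cells with 8 to 10. The cells on both sides of the threshold thus held Top2a, and the step at the threshold was smallest in the H3R26C 5-Aza and H3WT DMSO libraries.

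**Figure D1:**
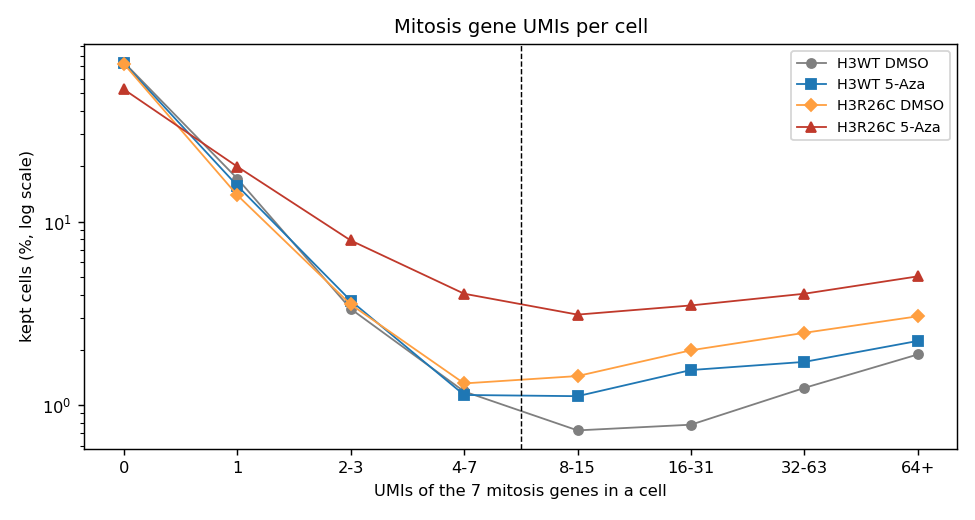
Share of kept cells (%, log scale) by the number of UMIs of the 7 mitosis genes, with 1 line for each library and a dashed line where the rule splits the cells. The bins widen to the right, up to 32 to 63 UMIs and an open bin of 64 or more, so the dip near the threshold and the rise after it depend on bin width. To the right of the threshold the lines lie in the same order, with H3R26C 5-Aza highest and H3WT DMSO lowest.

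The 7 genes that chose the cells are described here without a test, because their values follow from the rule. Birc5 encodes survivin, a part of the chromosomal passenger complex, and stood at 579.9, 683, 632 and 657 CPM in mitotic and 0.816, 1.67, 1.13 and 2.60 CPM in low cells. Cdk1, the kinase that starts mitosis, stood at 269, 349, 319.6 and 345 CPM in mitotic cells, and Ccnb2, a B-type cyclin that activates it, at 143, 184, 138 and 168 CPM. Cdc20, which activates the APC/C, stood at 219.5, 306, 216 and 234 CPM, and Ube2c, the enzyme that hands ubiquitin to the APC/C, at 417, 706, 556 and 678 CPM. Cenpf, a kinetochore protein, stood at 299, 527, 309 and 402 CPM and Tpx2, a spindle assembly factor that activates Aurora A, at 255, 299.7, 209 and 189.9 CPM. Between libraries, the 7 genes thus differed far less within mitotic cells than between mitotic and low cells, and none ranged over more than 2-fold. To see each gene outside its own selection, cells were chosen again with at least 7 UMIs of the other 6 genes. The level of the left-out gene over that in cells with at most 1 UMI of the other 6 was then 8.07, 7.64, 7.82 and 6.91 (log2 ratio) for Birc5, 7.37, 7.46, 7.28 and 6.15 for Cenpf and 5.41, 5.89, 5.65 and 4.72 for Cdk1. Each left-out gene was thus higher in the cells chosen on the other 6, and its ratio was lowest in H3R26C 5-Aza for each of the 7.

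Promoters of many mitosis genes carry 2 short elements. The CHR element (cell cycle genes homology region) binds the DREAM and MuvB complexes, which silence these genes in resting cells and help to switch them on in G2, and CCAAT boxes bind the factor NF-Y. RefSeq promoters of build GRCm38.p6, from 250 bases before to 50 bases after the start, were searched on both strands. The letters TTTGAA, which read TTCAAA when the element lies on the opposite strand, were counted as CHR letters. The form TTCGAA, which reads the same on either strand, was counted with them, and the CCAAT box was looked for as CCAAT and, on the opposite strand, as ATTGG. Of the 7 genes, 6 had a promoter in the table and Tpx2 was not in it. CHR letters were found in 5 of these 6 promoters (83.3%) against 19.2% of all 32851 promoters, and CCAAT letters in 5 of 6 (83.3%) against 37.4% of all. The same 5 promoters held both, which 7.53% of all promoters did. The promoters of Cdk1, Cdc20 and Ube2c are shown as examples of the 5 that hold both elements, and that of Birc5 because it holds neither. In the annotation of this build Cdk1 spans 69335146 to 69352938 of chromosome 10, Cdc20 118432901 to 118437352 of chromosome 4, Ube2c 164769898 to 164778822 of chromosome 2 and Birc5 117849251 to 117855743 of chromosome 11. Each printed promoter reaches into the first transcribed bases and runs 5′ to 3′ along the gene's strand, and capitals mark the CHR and CCAAT letters, of which a CCAAT and an ATTGG overlap in Ube2c.
Cdk1 (chr10:69352863-69353162, minus strand): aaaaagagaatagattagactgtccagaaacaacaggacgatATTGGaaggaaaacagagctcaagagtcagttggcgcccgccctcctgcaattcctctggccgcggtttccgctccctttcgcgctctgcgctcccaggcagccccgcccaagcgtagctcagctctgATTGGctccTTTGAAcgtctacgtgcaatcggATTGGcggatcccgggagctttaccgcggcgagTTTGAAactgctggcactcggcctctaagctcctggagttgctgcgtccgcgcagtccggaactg
Cdc20 (chr4:118437294-118437593, minus strand): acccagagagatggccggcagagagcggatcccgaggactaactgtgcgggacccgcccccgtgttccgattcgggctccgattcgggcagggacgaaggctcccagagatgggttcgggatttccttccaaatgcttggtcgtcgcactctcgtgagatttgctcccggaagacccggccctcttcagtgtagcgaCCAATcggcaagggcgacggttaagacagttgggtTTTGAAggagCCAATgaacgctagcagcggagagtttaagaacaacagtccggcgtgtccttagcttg
Ube2c (chr2:164769679-164769978, plus strand): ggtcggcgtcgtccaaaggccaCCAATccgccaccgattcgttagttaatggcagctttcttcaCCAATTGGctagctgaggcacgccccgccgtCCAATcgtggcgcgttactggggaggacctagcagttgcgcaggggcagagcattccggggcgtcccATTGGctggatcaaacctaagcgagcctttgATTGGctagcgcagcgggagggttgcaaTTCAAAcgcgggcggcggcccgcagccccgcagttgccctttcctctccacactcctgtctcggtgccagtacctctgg
Birc5 (chr11:117848987-117849286, plus strand): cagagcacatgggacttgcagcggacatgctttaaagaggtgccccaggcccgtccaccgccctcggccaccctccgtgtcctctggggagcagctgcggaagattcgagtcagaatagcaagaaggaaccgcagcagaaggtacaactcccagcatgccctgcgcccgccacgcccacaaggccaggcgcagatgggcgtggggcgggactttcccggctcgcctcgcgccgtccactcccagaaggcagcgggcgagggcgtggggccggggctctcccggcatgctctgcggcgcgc

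In the sequences above, the CHR letters nearest the start began 15 bases before it in Cdk1, 18 before it in Cdc20 and 29 before it in Ube2c. The promoters of Ccnb2 and Cenpf, not shown, held CHR letters beginning 4 and 2 bases after it. Among the wider groups of mitosis genes, CHR letters were in 19 of 26 promoters of spindle and motor genes (73.1%), 6 of 7 of passenger complex and cytokinesis genes (85.7%), 10 of 16 of condensin and chromosome genes (62.5%) and 15 of 28 of kinetochore genes (53.6%). The shares were lower for genes of mitotic entry, with 5 of 11 (45.5%), and of the checkpoint and APC/C, with 9 of 23 (39.1%). DNA replication genes held them in 8 of 49 promoters (16.3%), close to the share of all promoters, and muscle genes in 0 of 19. A match is a description of letters only, and no match says nothing about a factor.

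Mitotic cells were most frequent in the H3R26C 5-Aza library and least frequent in the H3WT DMSO library. They made up 4.64% of the kept cells in H3WT DMSO (exact binomial interval 3.98 to 5.36%), 6.62% in H3WT 5-Aza (6.01 to 7.28%), 8.95% in H3R26C DMSO (8.15 to 9.80%) and 15.7% in H3R26C 5-Aza (14.9 to 16.5%). The 4 intervals did not overlap. The share in H3R26C was 1.93 times that in H3WT with DMSO (exact conditional interval 1.61 to 2.32) and 2.37 times with 5-Aza (2.11 to 2.66). The share with 5-Aza was 1.43 times that with DMSO in H3WT (1.19 to 1.72) and 1.75 times in H3R26C (1.57 to 1.96). These intervals hold the counting error of 1 culture each and no spread between cultures.

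The shares were also taken at equal depth. With every cell thinned to 5000 UMIs and at least 3 mitosis UMIs required, the shares were 4.07, 6.56, 7.91 and 15.6%, in the same order. Without cells above 2 times the median UMIs of their library they were 3.57, 5.87, 6.87 and 12.9%. Under the looser filter of at least 1000 UMIs and 500 genes the shares were 4.27, 5.18, 8.48 and 12.7%, and the 5-Aza over DMSO ratio in H3R26C was then 1.49, its lowest value among the settings tried. The order of the 4 libraries was the same in the 9 settings, among them a rule of at least 5 or at least 12 mitosis UMIs.

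**Figure D2:**
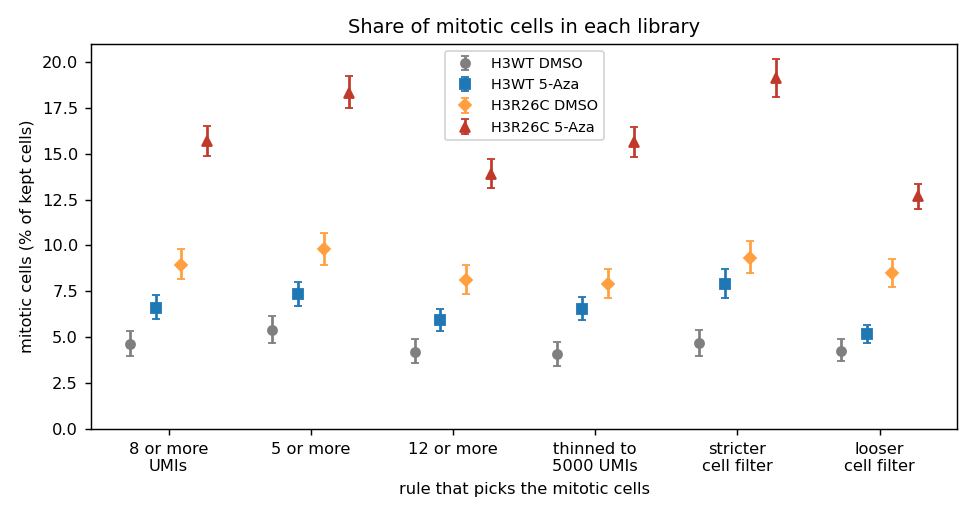
Share of mitotic cells (% of kept cells) in each library under 6 rules, with exact binomial 95% intervals as bars. H3R26C 5-Aza lies highest and H3WT DMSO lowest under each rule.

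Differentiated muscle cells have left the cycle, and the share of mitotic cells was also taken among cells with muscle RNA. The part of stray RNA in this share was not tested. Kept cells with at least 2 UMIs of at least 3 of 12 muscle genes (among them Mylpf, Ttn and Ckm) were found in the 5-Aza libraries, 786 in H3WT and 839 in H3R26C, with median depths of 14400 and 15840 UMIs. With DMSO there were 0 of 3710 and 0 of 4727, which allows shares of up to 0.0809% and 0.0635%. Of the muscle-marker cells, 7.76% (5.99 to 9.86%) and 15.3% (12.9 to 17.9%) passed as mitotic, about as many as among all kept cells. All kept cells were also divided by their level of the 12 genes, at steps chosen after the values were seen. Where the 12 genes together reached 20000 CPM, 1 of 120 cells was mitotic in H3WT 5-Aza (0.833%, 0.0211 to 4.56%) and 4 of 158 in H3R26C 5-Aza (2.53%, 0.694 to 6.36%). Where they stayed under 100 CPM, 9.68% of 878 and 24.3% of 1274 cells were mitotic. From 1000 to 20000 CPM, 6.81% of 470 cells in H3WT 5-Aza and 12.2% of 550 in H3R26C 5-Aza were mitotic. From 100 to 1000 CPM, 6.17% of 4525 and 14.4% of 5637 were. Few mitotic cells were thus found only at 20000 CPM or more, where median depths were 12190 and 17910 UMIs. In both libraries the share was highest where muscle RNA was lowest.

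Beyond the genes of the rule, the rest of the mitotic machinery stood higher in mitotic cells in all 4 libraries. This is the contrast from which the cells were chosen, so it is a description of them. Of the genes of mitotic entry, 16 of 16 measured (at least 5 CPM in the mean over all kept cells) were at least 2-fold higher in 4 of 4 libraries, with a median log2 ratio of 4.36. Of the 9866 measured genes outside the cell cycle lists 1.97% were, and nothing is read from the gap, since the rule used this contrast. Among them were Ccna2, the cyclin that partners Cdk1 and Cdk2 before mitosis, at 167, 223, 178 and 143 CPM in mitotic and 0.842, 1.11, 0.992 and 1.39 CPM in low cells, and Ccnb1, the main mitotic cyclin, at 133, 187, 138 and 142 CPM in mitotic cells. Kinetochore genes passed in 24 of 25 cases (median 4.30), with Cenpa, the histone H3 variant that marks centromeres, at 318, 425, 297 and 379 CPM in mitotic and 2.33, 3.48, 3.04 and 6.50 CPM in low cells. Spindle and motor genes passed in 23 of 24 cases (median 5.24), and genes of the passenger complex and cytokinesis in 8 of 8 (median 5.67). Prc1, which bundles the microtubules of the midzone, stood at 224, 369.5, 278 and 262 CPM in mitotic and 1.05, 2.66, 1.24 and 4.87 CPM in low cells. Anln, a passenger and cytokinesis gene that shapes the cleavage furrow, stood at 291, 358, 272 and 229 CPM in mitotic and 1.33, 4.44, 1.63 and 7.97 CPM in low cells.

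Within the cell cycle lists outside the rule, the smallest of the 4 log2 ratios was highest for Ccna2 (5.92 to 6.73), the passenger complex kinase Aurkb (5.91 to 6.18), the hyaluronan receptor and spindle protein Hmmr (5.78 to 6.74), Pimreg (5.74 to 6.21) and the mitotic kinase Pbk (5.67 to 6.96). Of the checkpoint and APC/C genes 16 of 22 were above 1-fold in all 4 libraries and 9 passed 2-fold in all 4, against 3039 and 194 of the 9866 genes outside the cell cycle lists. Among those past 2-fold was securin (Pttg1, 6.48, 6.52, 6.35 and 5.50). The core subunit Anapc11 was above 1-fold in each library (0.17 to 0.42). The core subunits Anapc2, Anapc10 and Anapc13 were the 3 slightly below 1-fold in every library, with log2 ratios of -0.18 to -0.03, -0.22 to -0.02 and -0.19 to -0.01.

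Chromosome proteins, tubulins and DNA replication genes were higher as well. Condensin and chromosome genes passed 2-fold in 20 of 21 cases, with Top2a at 687, 856, 739 and 698 CPM in mitotic and 5.08, 7.17, 5.98 and 12.9 CPM in low cells and the variant histone gene H2afz at 2089, 2164, 1869 and 1669 and 226, 259, 225 and 312 CPM. Of all genes outside the cell cycle lists 1.97% passed. DNA replication genes passed in 49 of 52 cases (median 2.75). Tk1, the thymidine kinase of the cell cycle, stood at 324, 301, 396 and 259 CPM in mitotic and 0.632, 1.61, 1.42 and 4.89 CPM in low cells. Tubulins, the subunits of microtubules, passed in 5 of 9 cases, Tubb5 at 2372, 2325, 2848 and 2481 CPM in mitotic and 682, 642, 749 and 857 CPM in low cells. Cells chosen on mitosis genes therefore also held RNA of DNA replication, and the name mitotic is used here for cells with G2 and S phase RNA as well.

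Histone genes lay on both sides. Of 16 measured genes whose names start with Hist, 8 were at least 2-fold higher and 2 at least 2-fold lower in 4 of 4 libraries, against 1.97% and 1.69% of all genes. Hist1h1b, which encodes a replication-dependent linker histone, stood at 449.9, 444, 594 and 272 CPM in mitotic cells (log2 ratios 4.53, 4.89, 5.16 and 4.90), and Hist1h2ae at 288, 522, 516 and 403 CPM (4.18, 4.84, 5.15 and 4.82). On the other side, Hist1h4i stood at 74.1, 79.2, 41.8 and 30.6 CPM in mitotic and 273, 211, 141 and 63.8 CPM in low cells, and Hist2h3c1 had log2 ratios of -2.42, -1.64, -2.67 and -1.52. The linker histone gene Hist1h1c (-0.77, -0.69, -0.40 and -0.62) and Hist1h2bc (-0.95, -0.79, -1.34 and -0.68) were also below 1-fold in every library. Most replication-dependent histone RNAs lack the poly(A) tail by which RNA is captured here, so that their levels reflect only captured molecules, and near-identical histone genes can exchange reads.

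Among the mitotic cells themselves, the level of mitosis UMIs ordered the other cell cycle genes. After thinning to 5000 UMIs the cells were divided into those with 3 to 5, 6 to 11, 12 to 23 and 24 or more mitosis UMIs, leaving out 28, 33, 53 and 106 mitotic cells with fewer. Along these 4 classes the replication genes together held 5502, 5761, 4680 and 2901 CPM in H3WT DMSO and 4292, 3671, 3505 and 2191 CPM in H3R26C 5-Aza, with the lowest value in the last class of every library. Ccne2, the cyclin of S phase entry, was highest in the first class and lowest in the last, with 53.7, 33.9, 10.4 and 1.30 CPM in H3R26C DMSO. Histone genes were highest in the 2 middle classes in each library, for instance 2091, 2885, 2794 and 1283 CPM in H3WT 5-Aza. Plk1, the kinase of mitotic entry, was higher in each class than in the one before, with 19.9, 67.6, 146 and 302 CPM in H3WT 5-Aza and 22.9, 57.4, 138 and 263 CPM in H3R26C 5-Aza. The tubulins together followed the same order, with 5395, 6593, 8900 and 11100 CPM in H3R26C DMSO, whereas collagen and matrix genes showed no such order in any library (21060, 21420, 19190 and 20870 CPM in H3R26C DMSO). The classes thus ran from cells rich in replication RNA to cells rich in mitotic RNA in each library. The median depth differed little between the classes, from 19110 to 21400 UMIs in H3R26C 5-Aza and from 25050 to 29810 UMIs in H3R26C DMSO. These classes rest on the genes of the rule, and the H3WT DMSO classes hold only 34, 48, 39 and 23 cells.

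Outside the cell cycle lists, 194 of 9866 genes (1.97%) were at least 2-fold higher in mitotic cells in 4 of 4 libraries and 167 (1.69%) at least 2-fold lower. Both counts come from the contrast that chose the cells and are given as descriptions. With low cells matched to the mitotic cells on UMIs, 175 genes were higher, 159 of them among the 194, and 94 were lower, 87 of them among the 167. The match was not complete in H3R26C, where the matched low cells had medians of 25520 and 18880 UMIs against 27870 and 20600 in mitotic cells. Without cells above 2 times the median UMIs the counts were 174 and 97. Without the H3R26C 5-Aza library the count of higher genes was 301 in the other 3 libraries. Leaving out any library can only keep or raise this count.

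**Figure D3:**
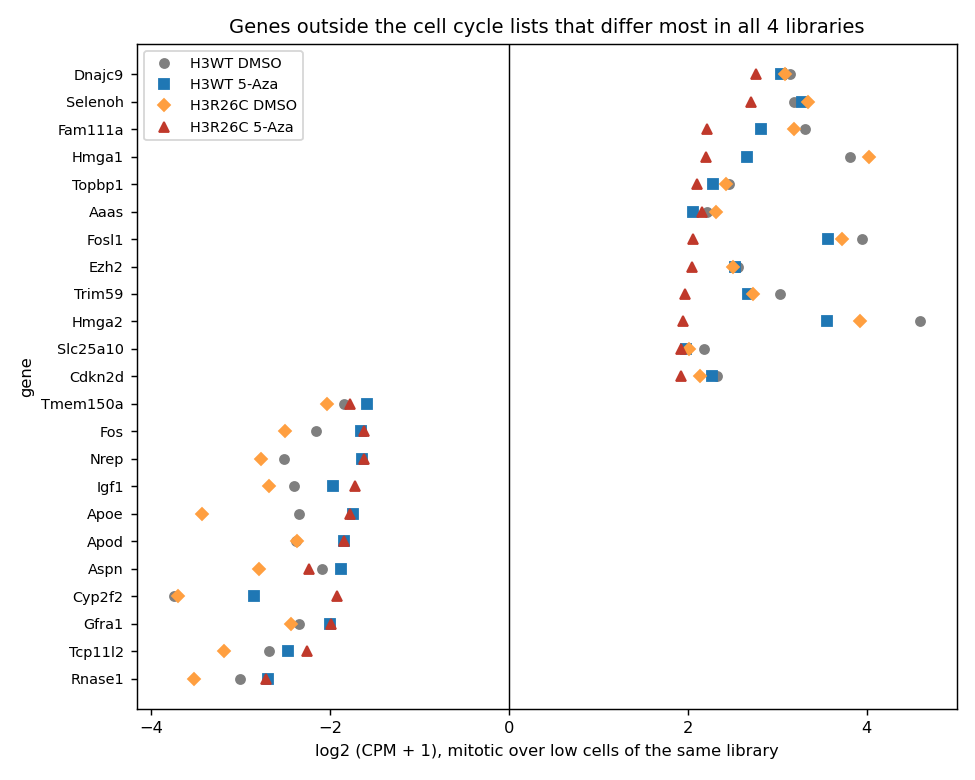
Log2 ratio of CPM + 1, mitotic over low cells of the same library, for 23 genes outside the cell cycle lists whose ratios lay among the farthest from 0 in all 4 libraries. The upper 12 genes lie above 1.9 and the lower 11 below -1.5 in every library, and H3R26C 5-Aza (triangles) is often nearest to 0.

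The 12 genes that stood highest outside the lists are named here. Dnajc9, a chaperone of histones H3 and H4, stood at 130.1, 139, 123 and 97.9 CPM in mitotic and 13.8, 15.98, 13.7 and 13.6 CPM in low cells. Ezh2, the catalytic subunit of Polycomb repressive complex 2 (PRC2), stood at 114, 114, 92.6 and 76.7 CPM in mitotic and 18.4, 19.0, 15.5 and 17.9 CPM in low cells, log2 ratios of 2.56, 2.52, 2.50 and 2.04, and even in the smallest group, H3WT DMSO, its exact Poisson interval was 105 to 122 CPM. Topbp1, a replication and checkpoint protein, had log2 ratios of 2.46, 2.29, 2.43 and 2.10, and Fam111a, a protease at replication forks, of 3.31, 2.82, 3.19 and 2.21. Every one of these lay above 4-fold in each library. The chromatin architectural genes Hmga1 and Hmga2 were at 164, 99.6, 272 and 274 and 61.8, 56.2, 96.8 and 152 CPM in mitotic cells, against 10.7, 14.9, 15.8 and 58.5 and 1.59, 3.86, 5.42 and 38.6 CPM in low cells. Fosl1, a subunit of the transcription factor AP-1, stood at 56.6, 69.6, 97.3 and 134 CPM in mitotic and 2.74, 4.96, 6.43 and 31.3 CPM in low cells. For Hmga1, Hmga2 and Fosl1 the low cells of H3R26C 5-Aza held more than those of any other library, and the ratio was smallest there. The log2 ratios of Hmga2 were 1.95 to 4.60, and 1.76 to 3.53 without cells above 2 times the median UMIs. The other leading genes were Selenoh, a nucleolar selenoprotein (2.70 to 3.34), Aaas, a nuclear pore protein (2.06 to 2.31), Trim59 (1.96 to 3.03), the mitochondrial dicarboxylate carrier Slc25a10 (1.93 to 2.19) and Cdkn2d, an inhibitor of Cdk4 and Cdk6 (1.92 to 2.33).

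The genes named next are from the 12 that stood lowest outside the lists. Igf1, an insulin-like growth factor, stood at 102, 183, 87.4 and 135 CPM in mitotic and 545, 720.2, 567 and 447 CPM in low cells, and Apod, a lipid-binding apolipoprotein, at 186, 252, 189 and 128 and 979, 905, 980.2 and 462 CPM. Fos, an immediate early subunit of AP-1, stood at 221, 169, 89.2 and 17.4 CPM in mitotic and 990.4, 534, 509 and 55.4 CPM in low cells. The AP-1 genes Fos and Fosl1 thus lay on opposite sides. Apoe, another apolipoprotein, had log2 ratios of -2.34, -1.74, -3.43 and -1.78, Rnase1, a secreted ribonuclease, of -3.01, -2.70, -3.52 and -2.72, and the matrix protein Aspn of -2.10, -1.88, -2.79 and -2.23. Against low cells matched on UMIs the log2 ratios were -2.72 to -1.73 for Rnase1, -1.94 to -1.26 for Apod (-2.39 to -1.84 without matching) and -2.45 to -0.37 for Apoe, which then passed 2-fold in 3 of the 4 libraries. Gfra1, a receptor subunit for glial cell line-derived neurotrophic factor, had log2 ratios of -2.44 to -1.99. The cytochrome P450 gene Cyp2f2 had log2 ratios of -3.75 to -1.92, with only 4 UMIs in the mitotic cells of H3WT DMSO. Against low cells without muscle or adipocyte markers Cyp2f2 had -2.62 to -1.34. Tcp11l2 (-3.19 to -2.26), Nrep (-2.78 to -1.62) and Tmem150a (-2.03 to -1.59) were also among them.

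Lists of genes outside the cell cycle were read against the median log2 ratio of all 9866 genes, which was -0.07. PRC2 genes had a median of 0.42, with 1 of 10, Ezh2, past 2-fold higher in 4 of 4 libraries, against 1.97% of all genes. Suz12, the scaffold of PRC2, stood at 88.0, 87.5, 77.8 and 78.8 CPM in mitotic and 36.6, 37.2, 39.5 and 38.1 CPM in low cells. Ezh1, the enzyme that takes the place of Ezh2 in resting cells, lay on the other side, at 20.5, 22.6, 19.4 and 19.9 CPM in mitotic and 46.1, 42.4, 40.8 and 37.6 CPM in low cells. The DNA methylation genes were split in the same way. Dnmt1, which copies methylation onto new DNA strands, stood at 154, 115, 152 and 91.3 CPM in mitotic and 28.7, 29.8, 32.9 and 28.9 CPM in low cells, while the de novo enzyme Dnmt3a (-1.05, -0.70, -1.33 and -0.69) and the demethylating enzymes Tet1, Tet2 and Tet3 were below 1-fold in each library.

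Of 12 measured G1 cyclins, their kinases and inhibitors, 3 were past 2-fold higher and 1 past 2-fold lower in 4 of 4 libraries, against 1.97% and 1.69% of all genes. Ccnd1, the D-type cyclin that responds to growth factors, stood at 367, 368, 467 and 422 CPM in mitotic and 152, 167, 159.5 and 195 CPM in low cells, whereas Ccnd2 stood at 102, 76.1, 59.9 and 43.4 and 234, 166, 179.6 and 91.6 CPM. Ccnd1 and Ccnd2 therefore lay on opposite sides. Cdkn1a, which encodes the inhibitor p21, was not lower in the cycling cells, with 391.8, 502, 279.8 and 312 CPM against 203, 326, 146 and 288 CPM in low cells. Among 13 measured p53 target genes 0 were past 2-fold higher in 4 of 4 libraries, a count from which nothing is read beside the 1.97% of all genes, and the median was 0.51, with Ccng1 at 1.51, 0.84, 1.28 and 0.71 and the antiproliferative gene Btg2 at -1.83, -1.19, -2.06 and -0.85.

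Matrix and immediate early genes lay lower. Of 44 collagen and matrix genes 40 were below 1-fold in all 4 libraries and 6 were at least 2-fold lower in all 4, against 3996 and 167 of the 9866 genes in all, and the median was -0.80. Col1a1, the main chain of type I collagen, stood at 1982, 1847, 2025 and 2257 CPM in mitotic and 3169, 2815, 3411 and 3465 CPM in low cells, and Fn1, fibronectin, at 2460, 2845, 1662 and 1340 and 3677, 4294, 2563 and 2809 CPM. Timp1, an inhibitor of matrix proteases, was the 1 gene above 1-fold in all 4, at 230.3, 219.8, 233 and 436 CPM in mitotic and 79.8, 140.5, 88.6 and 279.9 CPM in low cells. Immediate early genes, which respond within minutes to signals and to dissociation of cells, had a median of -0.99, and 15 of 23 were below 1-fold in all 4 libraries. Ier2 stood at 646, 624, 344 and 229 CPM in mitotic and 1501, 1141, 793 and 328 CPM in low cells, and Myc at 38.2, 36.6, 42.8 and 47.5 and 40.2, 32.7, 27.4 and 24.3 CPM. Since these genes also vary with dissociation, the part of handling was not tested.

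Genes of growth lay modestly higher. Of 14 nucleolar genes 13 were above 1-fold in all 4 libraries, against 3039 of the 9866 genes in all (median 0.51), with Nop56, a part of the machinery that modifies ribosomal RNA, at 1.35, 1.22, 1.40 and 1.01. Glycolytic genes had a median of 0.39 and 10 of 14 above 1-fold in all 4, where 3039 of all 9866 genes were, Ldha at 1058, 1555, 1142 and 2031 CPM in mitotic and 490.3, 876, 608 and 1412 CPM in low cells, and chaperone genes a median of 0.38. Contractile genes of the cytoskeleton had a median of 0.19, which was -0.0064 against low cells matched on UMIs. Ribosomal protein genes had a median of -0.06, close to that of all genes. All 13 mitochondrial genes were lower in mitotic cells (median -0.65), and the median mitochondrial share was 2.58, 2.15, 1.78 and 1.94% of the UMIs against 3.93, 2.95, 2.88 and 2.74% in low cells. Of 6 RNAs held in the nucleus, 4 were below 1-fold in all 4 libraries, as were 3996 of all 9866 genes, and Xist (-0.05 to 0.32) and Gm26917 (-0.99 to 0.53) were not. Malat1, one of these RNAs, stood at 4324, 5269, 3830 and 5181 CPM in mitotic cells and had log2 ratios of -1.21, -1.17, -1.25 and -1.17. Neat1 (-0.95, -1.29, -1.39 and -1.39) and Meg3 (-1.34, -1.43, -2.10 and -1.33) were lower as well.

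**Figure D4:**
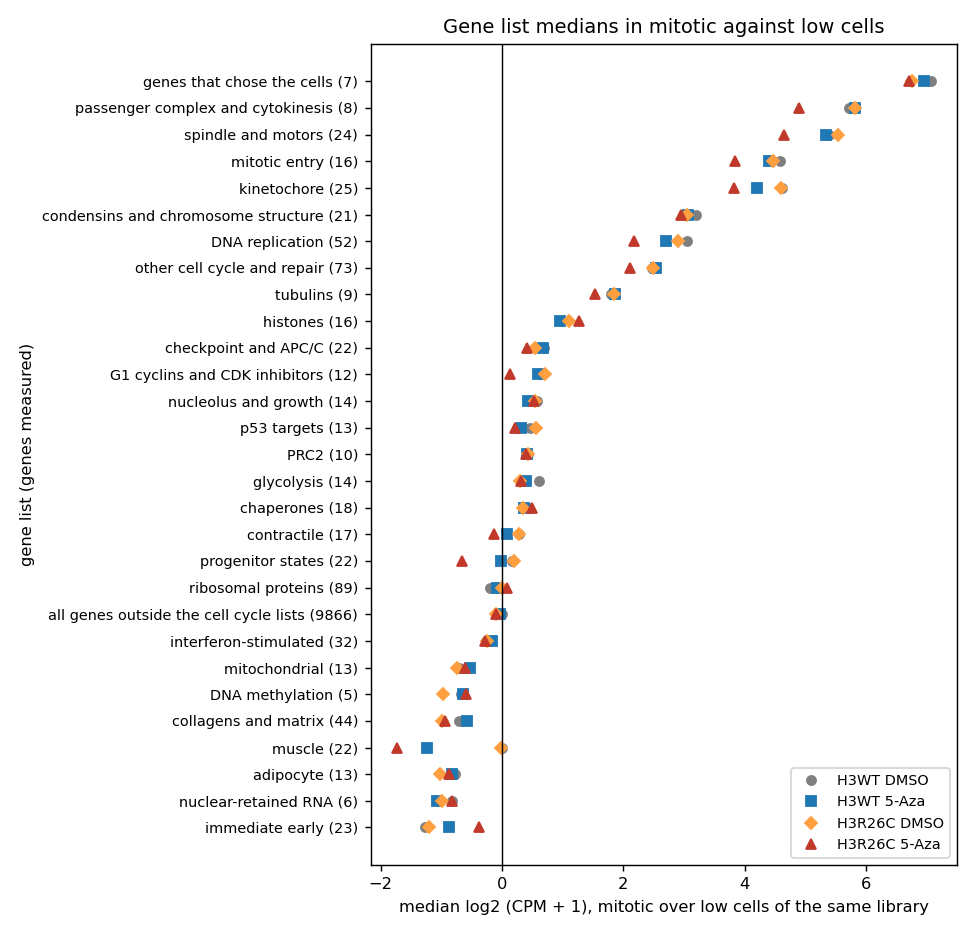
Median log2 ratio of CPM + 1, mitotic over low cells of the same library, for each gene list, with 1 point for each library and the number of measured genes in brackets. The cell cycle lists lie at the top, the median of all genes lies near 0, and matrix, muscle, adipocyte, nuclear RNA and immediate early genes lie lowest.

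Markers of other cell types were looked for in the mitotic cells. The 24 muscle genes together held 33.2, 974, 17.9 and 883 CPM in mitotic cells and 34.2, 2872, 29.6 and 3556 CPM in low cells, so that they were abundant only after 5-Aza, and there lower in mitotic than in low cells. In the mitotic cells with DMSO, 10 and 13 of the 24 muscle genes had no UMI, and Tnni1 was the most abundant. Cells with 2 to 7 mitosis UMIs held the most muscle RNA, 4711 CPM in H3WT 5-Aza and 5939 CPM in H3R26C 5-Aza. The muscle genes did not move alike. Those of the sarcomere were lower in mitotic cells of the 5-Aza libraries, for instance Myh3, an embryonic myosin, at log2 ratios of -1.91 and -2.52, and Ttn at -2.08 and -2.96. Myod1, the factor that commits cells to muscle and is already present in dividing myoblasts, was higher in mitotic cells of both (1.38 and 0.19), as was Cdh15, a cadherin of myoblasts (1.04 and 0.63). Myog, the factor that starts myocyte differentiation, stood at 0, 84.3, 0 and 46.4 CPM in mitotic, 0, 185, 0 and 225 CPM in the cells between and 0.0132, 52.4, 0 and 89.1 CPM in low cells, and so was higher in mitotic cells in H3WT 5-Aza and lower in H3R26C 5-Aza. Myod1, Cdh15 and Myh3 were picked after their values were seen. After thinning to 5000 UMIs, 5.79% and 7.96% of mitotic cells of the 5-Aza libraries had a Myog UMI, against 4.88% and 7.47% of low cells (9.57% and 15.2% against 8.16% and 12.8% without thinning). In the muscle-marker cells the thinned share was 26.1% and 39.9%, and in DMSO libraries, where Myog RNA was nearly absent, no mitotic cell had 1.

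The 15 adipocyte genes together held 174, 295, 158 and 212 CPM in mitotic and 345, 588, 472 and 414 CPM in low cells, and 12 of 13 measured were below 1-fold in all 4 libraries, against 3996 of the 9866 genes in all (median -0.89). Against low cells without muscle or adipocyte markers, a choice that leaves out the cells with most of this RNA, the median was 0.57. Cells with a UMI of at least 3 of the 15 adipocyte genes made up 66.2, 47.6, 54.7 and 35.4% of the kept cells, so that this loose rule took many cells with DMSO too, and 4.88, 6.03, 9.12 and 16.7% of them were mitotic. Fabp4, a fatty acid carrier of fat cells, stood at 10.5, 55.7, 8.03 and 44.7 CPM in mitotic and 18.7, 133, 68.4 and 107 CPM in low cells. Endothelial, blood and epithelial markers were scarce. Endothelial genes together held 1.94, 5.87, 4.44 and 10.7 CPM, blood cell genes 10.7, 15.8, 15.7 and 16.2 CPM and epithelial genes 0.162, 1.53, 0.0854 and 22.2 CPM in mitotic cells, and Ptprc, the common leukocyte antigen, had no UMI in 3 of the 4 libraries. Of the osteoblast genes Runx2, a factor of early bone cells, stood at 42.2, 28.4, 31.9 and 25.5 CPM in mitotic cells and Dmp1 reached 28.5 CPM in H3R26C 5-Aza. Of the chondrocyte genes Sox9, a regulator of cartilage, stood at 416, 209.7, 345 and 185 CPM in mitotic and 381, 322, 301 and 189 CPM in low cells, and Col2a1, a cartilage collagen, at 80.4, 38.0, 128 and 24.6 CPM in mitotic and 18.6, 10.6, 25 and 13.4 CPM in low cells, while Acan had no UMI in mitotic cells of 3 libraries. The part of such markers in the other differences was not tested.

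Genes that mark progenitor states in these cultures had median log2 ratios of 0.17, -0.01, 0.20 and -0.66 over 22 measured genes, and so were lower at the median in H3R26C 5-Aza. Hmga1 and Hmga2 were the 2 that passed 2-fold higher in 4 of 4 libraries (1.97% of all genes did), and Igfbp5, an insulin-like growth factor binding protein, the 1 that passed 2-fold lower, at 66.3, 412, 311 and 309 CPM in mitotic and 381, 885, 1304 and 977 CPM in low cells. Spp1, which encodes osteopontin, stood at 864, 1368, 1365 and 4912 CPM in mitotic and 218, 779, 271 and 4792 CPM in low cells, and the stem cell antigen Ly6a at 917, 1000, 755 and 1003 and 529.7, 1037, 642 and 1833 CPM. With DMSO both were thus higher in mitotic cells, whereas in H3R26C 5-Aza Spp1 was level and Ly6a lower. Lxn, a carboxypeptidase inhibitor, had log2 ratios of 2.45, 0.78, 3.23 and 0.09, and the membrane protein gene Tmem176b of 3.23, 0.27, 1.69 and -0.70. Ccn3, a matricellular protein, stood at 949, 656, 1027 and 176 CPM in mitotic and 472, 579.9, 764 and 331 CPM in low cells. Thinned to 5000 UMIs, Lxn had a UMI in 43.0, 39.8, 70.9 and 36.7% of mitotic and 17.7, 26.1, 26.4 and 36.9% of low cells (82.6, 71.8, 89.4 and 70.3% and 52.8, 49.5, 55.0 and 61.7% without thinning), so that the gap in DMSO cells was present at equal depth too. Enpp2, which makes lysophosphatidic acid, was lower in mitotic cells of each library (-0.98, -1.22, -1.18 and -2.17), as were the growth factor receptors Pdgfra (-0.57, -0.82, -0.40 and -1.20) and Pdgfrb (-0.70, -0.85, -0.93 and -1.10). Msln, mesothelin, and the stem cell marker Cd34 were measurable mainly in H3R26C 5-Aza, at 57.9 and 19.6 CPM in mitotic and 20.2 and 14.4 CPM in low cells.

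The chemokine genes Ccl2, Ccl7 and Ccl5 were higher in the mitotic than in the low cells of the DMSO libraries. They were picked from a list of 14 made after the values were seen, of which 1 of 8 measured passed 2-fold higher in 4 of 4 libraries, against 1.97% of all genes. Its median log2 ratios were 1.83, 0.23, 2.12 and -0.07, and the 14 genes together held 1471, 763, 2532 and 873 CPM in mitotic and 637, 928, 966 and 1097 CPM in low cells, so that with 5-Aza the summed level was lower in mitotic cells. Ccl2, which attracts monocytes, stood at 532, 152, 875 and 209 CPM in mitotic and 17.7, 46.3, 41.3 and 58.1 CPM in low cells. Ccl7 stood at 151, 61.7, 511 and 68.8 CPM in mitotic and 10.6, 27.1, 18.5 and 44.5 CPM in low cells, and Ccl5 at 43.8, 3.19, 93.8 and 12.6 and 0.684, 1.46, 4.58 and 9.86 CPM. After thinning to 5000 UMIs, 27.9, 19.4, 47.3 and 33.2% of mitotic cells had a Ccl2 UMI, against 4.07, 6.99, 6.09 and 12.7% of low cells (43.0, 34.5, 62.6 and 54.1% and 8.10, 12.5, 12.5 and 21.2% without thinning). The Ccl2 gap was thus wider with DMSO than with 5-Aza in both genotypes, by level and by share of cells. Mmp9, a secreted matrix protease, and Ngfr, a neurotrophin receptor, followed the same order, with log2 ratios of 4.44, 2.56, 4.31 and 1.14 and 4.10, 0.80, 3.73 and 1.16.

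The mitotic cells of the libraries were then compared with each other over 6210 genes outside the cell cycle lists with at least 20 CPM in the mean of the 4 mitotic groups. With 1 library a condition, these are differences between 2 libraries, and a gene is counted when the CPM + 1 differ at least 2-fold. The genes named for these comparisons were taken by another minimum, 50 CPM in the mitotic cells of either library, which a gene can pass through the library where it is high. Nefl, Msln and Wfdc18, named below, had less than 20 CPM in the mean of the 4 groups and are not among the 6210. Between H3R26C and H3WT with DMSO, 37 genes (0.596%) were higher and 26 (0.419%) lower, or 67 and 46 without cells above 2 times the median UMIs. Of these, 23 of the 37 and 6 of the 26 also passed 2-fold between the low cells of these libraries, where 58 and 9 genes did, which is 62.2% and 23.1% of the mitotic lists and 39.7% and 66.7% of the low cell lists.

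Efemp1, a matrix glycoprotein, had 5.66 and 101 CPM in the mitotic cells of H3WT DMSO and H3R26C DMSO, and Stmn2, a microtubule regulator best known from neurons, 8.73 and 72.7 CPM. The exact Poisson intervals for Efemp1 were 3.94 to 7.87 CPM and 95.01 to 107 CPM. Efemp1 also differed in low cells (8.38 and 84.8 CPM), with a log2 ratio of 3.19 against 3.93 in mitotic cells. Stmn2 was scarcer in low cells but differed there too (0.0658 and 5.26 CPM). The protease gene Bace2 had 10.7 and 83.0 CPM, the paired genes Tmem176a and Tmem176b 11.2 and 69.5 CPM and 29.6 and 122 CPM, and Igfbp5 66.3 and 311 CPM. On the lower side, Dlk1, a membrane protein that restrains adipogenesis, had 129 and 24.8 CPM (intervals 120.0 to 138 and 22.0 to 27.8) and Eln, which encodes elastin, 316 and 66.1 CPM. Clec11a, a growth factor for osteogenic cells, had 61.6 and 14.8 CPM, the surface antigen Thy1 161 and 41.2 CPM, the collectin Colec10 153 and 45.4 CPM and the imprinted noncoding RNA Meg3 56.0 and 17.5 CPM. Dlk1 and Meg3, neighbours in 1 imprinted domain, were thus both lower in H3R26C.

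After 5-Aza the genotypes differed more widely, with 82 genes (1.32%) higher and 114 (1.84%) lower in the mitotic cells of H3R26C. In the low cells 122 and 88 genes passed. Shared were 69 higher genes, 84.1% of the mitotic and 56.6% of the low cell list, and 60 lower genes, 52.6% and 68.2%. Nefl, a neurofilament subunit, had UMIs only in the H3R26C 5-Aza library, at 57.2 CPM in its mitotic cells (1418 UMIs, exact Poisson interval 54.3 to 60.3 CPM), 5.34 CPM in its low cells and 0 UMIs in the other 3 libraries. Against the 3 counts that a count of 0 allows, this was at least 149-fold higher than in the mitotic cells of H3WT 5-Aza. Crabp1, which binds retinoic acid, had 6.64 and 212 CPM in the mitotic cells of H3WT 5-Aza and H3R26C 5-Aza. The homeodomain protein gene Hopx had 13.8 and 201 CPM, Msln 4.21 and 57.9 CPM and Alox5ap, needed for leukotriene synthesis, 6.13 and 77.7 CPM. Crabp1, Hopx, Msln and Alox5ap differed in low cells to a like degree. Their log2 ratios were 4.19, 3.04, 3.50 and 3.92 there, against 4.80, 3.77, 3.50 and 3.46 in mitotic cells. For Nefl the low cells allow only a bound as well, at least 127.7-fold higher in H3R26C 5-Aza than in H3WT 5-Aza. On the lower side, Mfap5, a microfibril protein, had 193 and 17.3 CPM, Eln 378 and 37.0 CPM, Abi3bp, a matrix protein, 208 and 45.6 CPM and Colec10 90.4 and 8.96 CPM. Fos (169 and 17.4 CPM) and Dlk1 (172 and 24.2 CPM) were also among the 6 lowest.

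**Figure D5:**
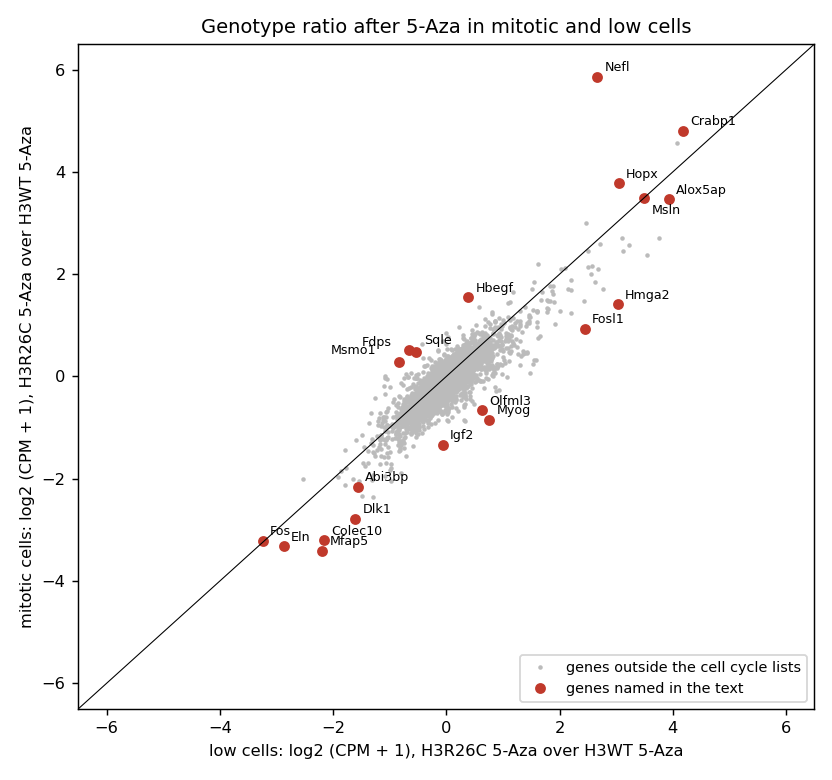
Log2 ratio of CPM + 1, H3R26C 5-Aza over H3WT 5-Aza, in mitotic cells (y axis) against low cells (x axis), for genes with at least 20 CPM in mitotic cells (grey) and the genes named in the text (red), with the line of equal ratios. Hbegf and the 3 sterol genes lie above the line, and Hmga2, Fosl1, Olfml3, Myog and Igf2 below it. Nefl also lies above it, but it had 0 UMIs in H3WT 5-Aza, so that its place follows from the 1 CPM added.

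Some genotype differences after 5-Aza were larger or smaller in mitotic than in low cells. Above the line, by their difference in log2, were Fdps (1.19), Msmo1 (1.12) and Sqle (1.01), enzymes of sterol synthesis, and Hbegf (1.17), a ligand of the EGF receptor. Nefl also lay above it, but it had 0 UMIs in both the mitotic and the low cells of H3WT 5-Aza. Its genotype fold is therefore only bounded, at least 149 in mitotic and at least 127.7 in low cells, and its place follows from the 1 CPM added. Fdps stood at 136, 107, 104 and 154 CPM in mitotic and 103, 128, 85.2 and 80.6 CPM in low cells. Hbegf stood at 12.8, 17.4, 11.4 and 52.7 CPM in mitotic and 17.8, 10.0, 8.29 and 13.4 CPM in low cells, so that its highest value was in the mitotic cells of H3R26C 5-Aza. A list of 18 cholesterol synthesis genes made after these values were seen had medians of -0.07, -0.47, -0.09 and 0.30 in the 4 libraries, above 0 in H3R26C 5-Aza only. Below the line were Hmga2 (-1.61), Fosl1 (-1.51), Myog (-1.60), the secreted protein gene Olfml3 (-1.29) and Igf2 (-1.27), an insulin-like growth factor. Hmga2 and Fosl1 were abundant in mitotic cells of both libraries (56.2 and 152 CPM and 69.6 and 134 CPM) and were farther apart in low cells (3.86 and 38.6 CPM and 4.96 and 31.3 CPM). These genes were taken as the extremes of the difference, which had no replicate.

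With 5-Aza against DMSO, 91 genes (1.47%) were higher and 16 (0.258%) lower in the mitotic cells of H3WT, and 155 (2.50%) higher and 114 (1.84%) lower in those of H3R26C. Among the highest in H3WT were muscle genes. Ttn, the giant spring protein of the sarcomere, had 0 UMIs in DMSO and 164.5 CPM in 5-Aza, at least 339-fold higher, and Myog 0 UMIs and 84.3 CPM, at least 174-fold higher. Acta1, skeletal muscle actin, had 1 UMI in DMSO and 1104 in 5-Aza, a ratio of 872 (counting interval 156 to 34450). Acta1 was widespread after 5-Aza: thinned to 5000 UMIs, 29.2% of the mitotic and 36.7% of the low cells of H3WT 5-Aza had an Acta1 UMI (59.5% and 61.7% without thinning), whereas 13.1% of the kept cells were muscle-marker cells, of which 74.2% had 1. The part of stray RNA in the muscle RNA of mitotic cells was not tested. The myosin light chain gene Mylpf had 0.809 and 108 CPM, and the collagen gene Col8a1 1 UMI in DMSO and 420 in 5-Aza (ratio 332, interval 59.2 to 13130). Plac8, a gene linked to fat cell formation, had 0 UMIs in DMSO and 65.6 CPM in 5-Aza, at least 135-fold higher. The low cells of H3WT 5-Aza held more of both sarcomere genes, 697 CPM of Ttn and 362 CPM of Mylpf. On the lower side were Ccl2 and Ccl7, at 532 and 152 CPM and 151 and 61.7 CPM, Sfrp1, an antagonist of Wnt signalling (70.2 and 29.5 CPM), Il1rn, an antagonist of interleukin 1 (177 and 83.4 CPM), Pgm5 (115 and 54.3 CPM) and Col2a1 (80.4 and 38.0 CPM). In low cells Ccl2 and Ccl7 differed in the opposite direction (17.7 and 46.3 CPM and 10.6 and 27.1 CPM).

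In H3R26C the highest genes were again Acta1, with 0 UMIs in DMSO and at least 609-fold higher in 5-Aza, Ttn, at least 398-fold higher, Mylpf (0.683 and 159.7 CPM) and Plac8 (0.769 and 212 CPM). Ndufa4l2, a subunit linked to the response to low oxygen, had 0.342 and 208 CPM and Crabp1 1.45 and 212 CPM. The lowest were Wfdc18 (53.6 and 2.42 CPM), Mmp9 (88.5 and 7.10 CPM), Ngfr (66.8 and 5.17 CPM), Ccl7 (511 and 68.8 CPM), Ccl5 (93.8 and 12.6 CPM) and Ccn3 (1027 and 176 CPM). Of the 114 lower genes, 52 also passed 2-fold in low cells, 45.6% of this list and 46.0% of the 113 of low cells, and of the 155 higher genes 115 did, 74.2% and 51.8% of the 222. In H3WT, 72 of the 91 higher genes did (79.1% and 59.0% of 122) but 1 of the 16 lower genes (6.25% and 20% of 5). The 2 comparisons with 5-Aza share libraries with the genotype comparisons, so that their values stand side by side and are not independent.

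Between the genotypes, the median log2 ratio of H3R26C over H3WT in mitotic cells was 0.08 with DMSO and -0.45 with 5-Aza over the spindle and motor genes, and -0.04 and -0.28 over the DNA replication genes. For all genes outside the cell cycle lists it was -0.04 and -0.09. The tubulins were not lower, at 0.18 and 0.09. In low cells with 5-Aza, the medians lay on the other side, at 0.15 over the spindle and motor genes and 0.22 over the DNA replication genes. Interferon-stimulated genes had a median of -0.29 in mitotic over low cells. Of 32 measured, 17 were below and 6 above 1-fold in all 4 libraries, against 3996 and 3039 of the 9866 genes in all. B2m (-0.51 to -0.36) and Ifi27 (-0.29 to -0.08) were lower in mitotic cells of each library, and Ifi27l2a and Ly6e higher. Between the genotypes the list had medians of 0.48 and 0.98 in mitotic cells and 0.43 and 1.15 in low cells. Ifi27l2a, an interferon-stimulated gene, stood at 83.3, 145, 173 and 758 CPM in mitotic and 16.2, 50.5, 49.6 and 596 CPM in low cells, and the membrane antigen Ly6e at 30.1, 153, 49.0 and 908 and 13.8, 94.5, 24.3 and 888 CPM. The difference of Ifi27l2a and Ly6e between genotypes after 5-Aza was thus present in mitotic cells too, and was larger in low cells. Thinned to 5000 UMIs, the median mitotic cell held 15, 14, 20 and 13 UMIs of the replication genes, against 3 in low cells of each library, so that the mitotic groups were not equal in replication RNA, and the part of this in the other differences was not tested.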

How the data were processed

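RNA of single cells was counted in 4 libraries, 1 for each of H3WT DMSO, H3WT 5-Aza, H3R26C DMSO and H3R26C 5-Aza, grouped by their labels. The deposited values are raw UMI counts per gene and barcode, which the authors made with Cell Ranger (6.1.0 per the file headers) on mm10, and the study's later clustering in Seurat 4 was not used here. The files held 39891 barcodes and 32285 genes, and the transgene was not analysed here.

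Kept barcodes had at least 5000 UMIs, at least 1500 genes and at most 20% mitochondrial UMIs. Counts were summed over the mitotic or low cells of a library and divided by all their UMIs to give CPM, and log2 ratios were taken of CPM + 1. The 391 cell cycle, histone and tubulin genes were set aside from the counts of genes past 2-fold, which used genes with at least 5 CPM in the mean over kept cells, or 20 CPM over mitotic cells for comparisons between libraries. With 1 library a condition no test was run. Intervals are exact Poisson for CPM, exact binomial (Clopper-Pearson) for shares and exact conditional for ratios of shares, at 95%, and a count of 0 was read as at most 3 counts. Gene positions came from an annotation of GRCm38.p6 that matched 32235 of 32285 genes.

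Named were the genes of the rule, up to 4 most abundant genes of each list, the 12 genes in each direction farthest from 0 in all 4 libraries (at least 20 CPM), the 6 in each direction for each comparison between libraries and the 5 whose genotype ratio differed most between mitotic and low cells (at least 50 CPM), the 5 highest cell cycle genes and those below 1-fold throughout, and the progenitor list, and 2 of these genes are not reported here. Other genes named within a list, such as Ezh1, Ccnd2, Timp1, Btg2, Plk1, Ccne2, Myc and Nop56, were picked after their values were seen. The members and lists were chosen with earlier results of these data known, and the chemokine and cholesterol synthesis lists and the classes of cells by mitosis UMIs or muscle RNA after their values were seen. Alternatives were other UMI thresholds, thinning to 5000 UMIs, other cell filters, pseudocounts, scalings, minimum CPM and low cells, and, added after seeing the data, leaving out large cells, shared barcodes or each library. Python 3.11.15, numpy 2.4.6, scipy 1.17.1, pandas 2.3.3 and matplotlib 3.10.9 were used, and the summing and ratios were tested on simulated data.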

Additional observations from a re-analysis of the deposited data

How the results depend on the processing

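Of 388 values recomputed under other settings, 327 stayed within the counting interval of the share ratios, within 1.5 times the count of genes or within 1 SD of the 4 libraries for list medians. No test was run. Mitotic and low cells were compared within each library, and this was the contrast that chose the cells. Each condition had only 1 library. The share ratio of H3R26C 5-Aza over H3R26C DMSO was 1.97 in thinned cells, 2.05 with the stricter cell filter (10000 UMIs, 2500 genes, 10% mitochondrial UMIs) and 1.49 with the looser one. Without the H3R26C 5-Aza library 301 genes were higher in mitotic cells. With 4 times the minimum CPM, 83 were higher and 101 lower, from fewer genes tested, and the lower genes numbered 81 with a pseudocount of 5 CPM, 97 without large cells and 94 with low cells matched on UMIs. A minimum of 10 CPM in place of 20 CPM gave, between mitotic cells of 2 libraries, 76 higher and 50 lower for H3R26C over H3WT with DMSO, 141 and 177 with 5-Aza, and 167 and 27 for 5-Aza over DMSO in H3WT, with 259 higher in H3R26C. Counts with 4 times the minimum were 9 and 9, 21 and 46, 21 and 3, and 41 and 38. Leaving out large cells gave 67 higher and 46 lower for the genotypes with DMSO, and another scaling gave 27 lower for 5-Aza in H3WT.

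With low cells lacking muscle and adipocyte markers, which removes by construction cells that hold those RNAs, the adipocyte median reversed to 0.57 and the muscle median was 0.33. Matched low cells moved the list medians of PRC2 (0.51), p53 targets (0.26), contractile genes (-0.0064), interferon-stimulated genes (-0.21), adipocyte genes (-1.28), glycolysis (0.19), nucleolus (0.42), chaperones (0.31), nuclear RNAs (-0.68) and mitochondrial genes (-0.48). Without large cells the adipocyte, nucleolus, chaperone and mitochondrial medians were -0.75, 0.38, 0.27 and -0.54. With 4 times the minimum CPM the PRC2, p53, interferon and nucleolus medians were 0.57, 0.34, -0.17 and 0.64, and with a pseudocount of 5 CPM the PRC2, p53, interferon and adipocyte medians were 0.36, 0.33, -0.21 and -0.75. Per-cell means gave 0.37 for PRC2, -0.77 for adipocyte genes and 0.43 for nucleolus, thinned cells 0.44 for nucleolus, and at least 5 mitosis UMIs 0.39 for PRC2 and -0.20 for interferon. The PRC2 median was 0.45 under another scaling, 0.26 with the lower minimum and 0.38 with low cells lacking the markers, where the interferon median was -0.35. The cause of these shifts was not tested. The H3WT DMSO group holds the fewest mitotic cells and UMIs, and counting intervals hold no spread between cultures.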
